A study of Homo sapiens with 12 samples.

Results

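Glycolysis and the transcriptional response to low oxygen were followed in HUH6 human hepatoblastoma cells in which GATA4 had been silenced. The 36 genes were taken from a list of glycolytic enzymes, gluconeogenic enzymes, collagen hydroxylases, hypoxia-induced genes and oxygen sensors, by their known function. Of these, 32 had a probe with a detection p-value under 0.01 on at least 6 of the 12 arrays and were tested among 10196 genes in all. The brightest such probe stood for its gene.

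Glycolysis splits glucose into pyruvate in the cytosol, and phosphofructokinase catalyses its committed step. Hypoxia-inducible factors (HIF) are transcription factors whose alpha subunit is hydroxylated by EGLN enzymes and destroyed while oxygen is present. When oxygen is short they raise the transcripts of glucose transporters, glycolytic enzymes, collagen hydroxylases and secreted factors such as vascular endothelial growth factor. The liver also runs the opposite route, gluconeogenesis, through its own enzymes. Isozymes of one step are separate genes, so the array could follow each of them.

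HUH6 is an established cell line, and all samples came from this 1 line. In 6 samples a pool of 4 siRNAs against GATA4 was transfected, and in the other 6 a non-targeting (NT) siRNA, each at 0.1 uM with Lipofectamine RNAiMAX in Opti-MEM without antibiotics. Growth medium was added after 6 h, and total RNA was taken 72 h after the start. The labels name no low-oxygen treatment, and they do not say whether replicates were grown apart. The p-values therefore cover sample-to-sample spread alone, which may be technical. The arrays report transcripts, not the protein stability by which HIF1A is mainly controlled.

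The silencing was seen at the target. The GATA4 probe read 108.3 to 119.3 raw units after GATA4 siRNA, with detection p-values of 0.252 to 0.738, against 137.1 to 168.8 raw units and 0 to 0.00909 after NT siRNA. It was above background in 0 samples given GATA4 siRNA and in all 6 given NT siRNA. This was the only GATA4 probe, and it lay near background even after NT siRNA, so the degree of silencing cannot be judged. Of 10 hepatoblast and hepatocyte markers 8 were tested, AFP and ALB among them, while DLK1 was not detected on enough arrays and no probe named HNF4A here. ALB (log2 change -0.23) and FOXA2 (-0.15) were called lower after GATA4 siRNA, and the other tested markers of this list were not called. Their summed linear signal was 84795 to 94933 after GATA4 siRNA and 87665 to 97957 after NT siRNA. Of 10 fibroblast and stellate cell markers 6 were tested, and COL1A2 (0.22) and TAGLN (0.24) were called higher. The sum was 7764 to 13258 after GATA4 siRNA and 7492 to 12458 after NT siRNA. COL1A1, COL3A1, DCN and LUM were not detected on enough arrays. None of these marker calls held when the replicate block, described below, was dropped (limma adjusted p 0.206 to 0.845). The part of these markers in the results below was not tested. All samples are of 1 line, and in bulk RNA fewer cells expressing a marker and less of its RNA per cell cannot be told apart. The first principal component held 57.3% of the variance and separated replicates 4 to 6 from replicates 1 to 3 in both groups. The 2 sets were noticed in these arrays, and the labels give no batch for them.

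After GATA4 siRNA, 1 of the 32 tested genes rose and 2 fell, and the changes were small. PFKP, the platelet-type phosphofructokinase subunit, was 1.15-fold higher. PFKFB3, which makes the activator of phosphofructokinase, was 1.19-fold lower, and P4HA1, a catalytic subunit of collagen prolyl hydroxylase, was 1.22-fold lower. A gene was called where its limma p-value, adjusted over all 10196 genes in a fit with the replicate number as a block, was under 0.05. By that rule 6.41% of all genes were called, 2.65% higher and 3.77% lower, and 9.38% of the tested members were, which is 3 genes and near the share over all genes. The median log2 change of the 32 genes was 0.0097, and 20 of them were positive; the median over all genes was 0.0020. The 17 glycolytic enzymes from hexokinase to lactate dehydrogenase held 1 of the calls, with a median change of 0.011. Without the block 0 members were called in limma, and 0.706% of all genes were. At an unadjusted p under 0.05 without the block there were 5 of the 32 members (15.6%) and 974 of all genes (9.55%). The 6 values of each siRNA group overlapped in all 32 genes, while 1.68% of all genes had groups that did not overlap.

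**Figure D1:**
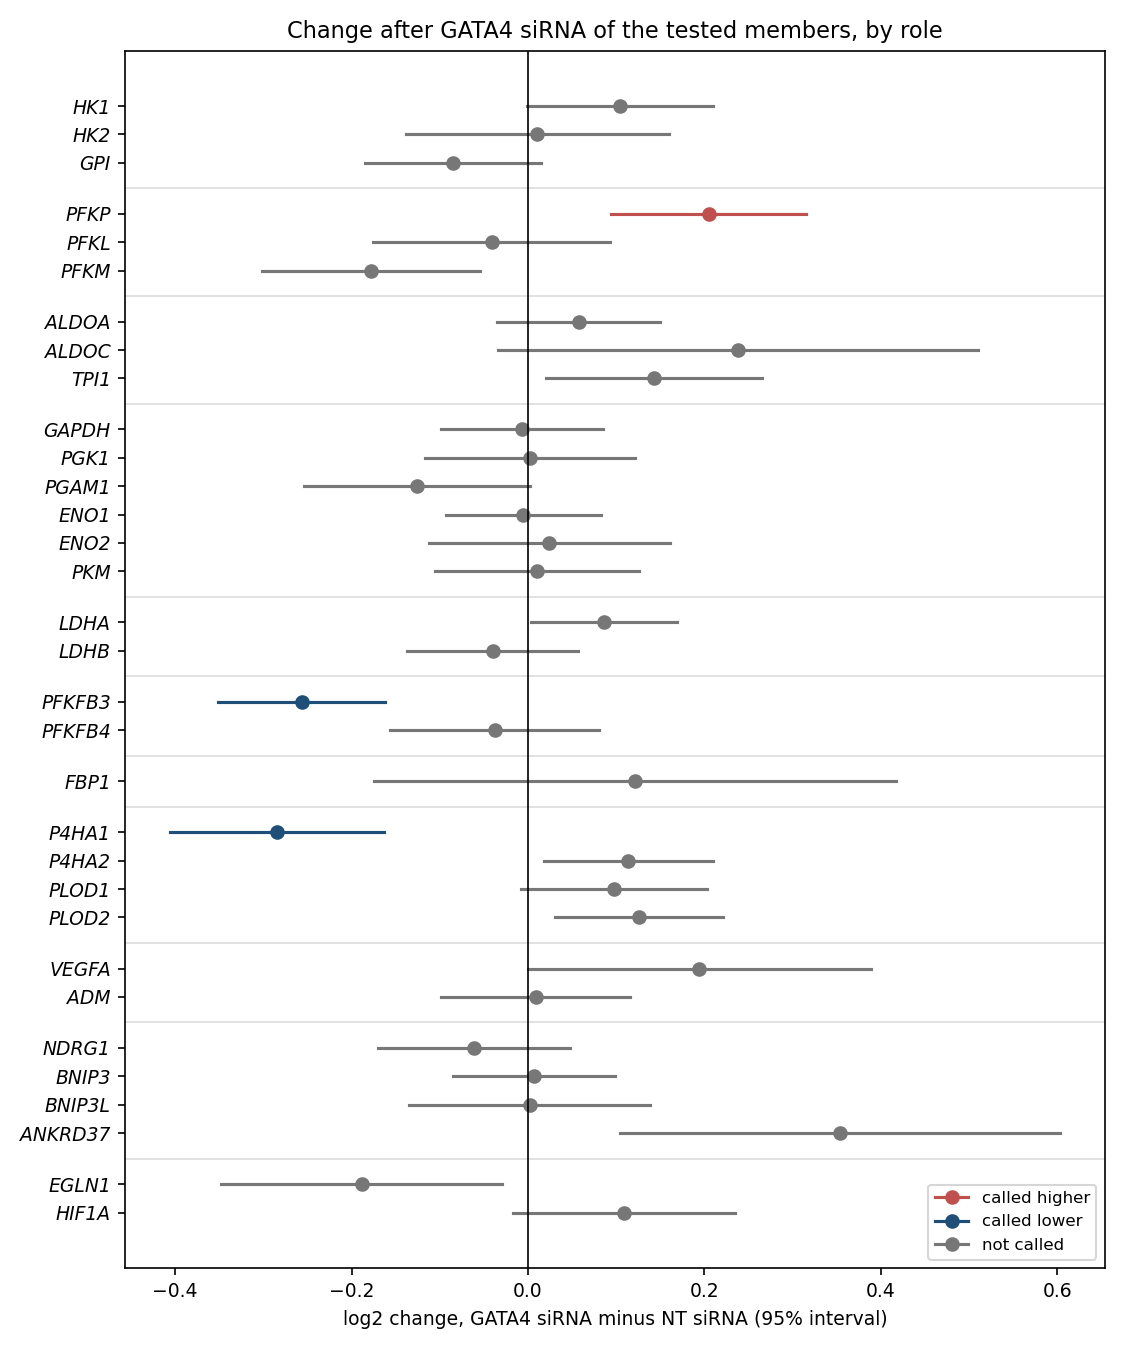
Log2 change (GATA4 siRNA minus NT siRNA, horizontal axis) of the 32 tested genes with its 95% interval, grouped by role down the page. PFKP at 0.20 is called higher, PFKFB3 at -0.26 and P4HA1 at -0.28 are called lower, and the intervals of the other genes are drawn in grey.

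The 3 genes that open glycolysis had changes of -0.085 to 0.10, and 0 were called. HK1, the widely expressed hexokinase that traps glucose as its phosphate, had log2 intensities of 10.18, 10.46 and 10.62 (lowest, median, highest) after GATA4 siRNA and 10.17, 10.31 and 10.49 after NT siRNA. The groups overlapped over most of their range. Its log2 change was 0.10 (SE 0.051, limma adjusted p = 0.250). HK2, the hexokinase isozyme typical of growing and tumour cells, had a change of 0.011 with a 95% interval of -0.14 to 0.16. GPI, the isomerase of the next step, had a change of -0.085 with an interval of -0.18 to 0.015.

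Of the phosphofructokinase subunits, PFKP rose. It had log2 intensities of 9.96, 10.63 and 11.02 after GATA4 siRNA and 9.93, 10.38 and 10.84 after NT siRNA. The groups overlapped widely, and in each group replicates 4 to 6 were low and replicates 1 to 3 high. Set against the NT siRNA sample of the same number, the GATA4 siRNA sample was higher in 6 of 6 pairs, by 0.026 to 0.36. Samples of the same number were no more alike than other samples of their set. A count of pairs, here and below, therefore adds nothing beyond the sets. Within replicates 4 to 6, PFKP in GATA4 siRNA replicate 5 (9.96) lay below NT siRNA replicate 6 (10.15). The log2 change was 0.20 (SE 0.053, limma adjusted p = 0.0209, 0.0227 with the 2 sets as the block, or 0.889 when the block was dropped). Its other probe was detected on 0 arrays.

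PFKM and PFKL encode the muscle-type and liver-type subunits of the same enzyme, and neither was called. PFKM had log2 intensities of 8.25, 8.38 and 8.49 after GATA4 siRNA and 8.46, 8.56 and 8.65 after NT siRNA. The GATA4 siRNA sample was lower in 6 of 6 pairs, and the groups met only at their ends. Its change was -0.18 (SE 0.060, limma adjusted p = 0.0818). PFKL had a change of -0.041 with an interval of -0.18 to 0.094. The call of PFKP rested on single replicates. It ended without replicate 2 (0.17, limma adjusted p = 0.0841), without replicate 3 (0.18, adjusted p = 0.0624) and without replicate 4 (0.17, adjusted p = 0.0979), and with equal medians in place of quantiles (0.20, adjusted p = 0.129).

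The RefSeq table of GRCh38.p14 gives 55 windows of 250 bases before a transcript start for 32 of the 36 genes. They are shown for the genes called, for ANKRD37, which had the largest positive change, and for ADM, which differed most between the replicate sets, because the letters ACGTG or GCGTG are the core that HIF binds. Capitals mark these letters on either strand. PFKP has 4 windows, and the fourth, not shown, holds GCGTG 3 times. The one with ACGTG is chr10:3068939-3069188 on the plus strand of GRCh38.p14, before the third listed start.

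PFKP: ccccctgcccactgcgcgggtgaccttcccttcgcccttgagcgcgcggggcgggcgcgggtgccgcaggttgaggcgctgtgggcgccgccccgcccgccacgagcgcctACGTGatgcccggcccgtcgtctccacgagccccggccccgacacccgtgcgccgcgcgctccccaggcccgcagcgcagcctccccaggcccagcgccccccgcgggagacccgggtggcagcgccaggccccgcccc

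The genes of fructose bisphosphate cleavage had positive changes, and none was called. TPI1, which interconverts the triose phosphates, had log2 intensities of 12.65, 12.70 and 12.82 after GATA4 siRNA and 12.41, 12.48 and 12.83 after NT siRNA. The NT siRNA samples spread over a wider range that covered the GATA4 siRNA samples. Its change was 0.14 (SE 0.059, limma adjusted p = 0.167), with 0.095 at its other probe, and it was called without replicate 2 (0.21, adjusted p = 0.0356). ALDOA, the main aldolase of muscle and growing cells, had a change of 0.058 (interval -0.035 to 0.15) and -0.11 at its dimmer tested probe. ALDOC, the brain aldolase, was near background, with detection on 4 of 6 arrays after GATA4 siRNA and 2 of 6 after NT siRNA. Its change was 0.24 (SE 0.13, limma adjusted p = 0.327).

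The 6 genes of lower glycolysis, which yield ATP and pyruvate, had changes of -0.13 to 0.024, and 0 were called. PGAM1, a phosphoglycerate mutase, had log2 intensities of 10.63, 11.00 and 11.21 after GATA4 siRNA and 10.97, 11.12 and 11.19 after NT siRNA. One GATA4 siRNA sample, replicate 3, stood well below the rest. Its change was -0.13 (SE 0.062, limma adjusted p = 0.257), with 0.054 at its dimmer probe. GAPDH, the triose phosphate dehydrogenase often used as a reference, had a change of -0.0065 (interval -0.098 to 0.085). ENO1, the common enolase, had a change of -0.0051 (interval -0.093 to 0.082), and PGK1, a phosphoglycerate kinase, one of 0.0023 (interval -0.12 to 0.12). ENO2, the neuronal enolase, was at 0.024 and PKM, a pyruvate kinase gene, at 0.011.

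Of the genes that set the fate of pyruvate, 2 of 3 were tested and 0 were called. LDHA, the lactate dehydrogenase subunit that favours lactate formation, had log2 intensities of 13.52, 13.62 and 13.69 after GATA4 siRNA and 13.49, 13.55 and 13.57 after NT siRNA. Most GATA4 siRNA samples lay above the NT siRNA range. Its change was 0.086 (SE 0.040, limma adjusted p = 0.223). The other tested LDHA probes read 0.0042 and 0.11. LDHB, the heart-type subunit, had a change of -0.040 (interval -0.14 to 0.057). PDK1, the kinase that shuts pyruvate out of the mitochondrial dehydrogenase, was not tested: its probe read 114.4 to 135.1 raw units with detection p-values of 0.0286 to 0.316.

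PFKFB3, one of the enzymes that make and remove the phosphofructokinase activator, fell. It had log2 intensities of 10.07, 10.19 and 10.36 after GATA4 siRNA and 10.34, 10.45 and 10.57 after NT siRNA. The groups overlapped by 1 sample, GATA4 siRNA replicate 3, and the GATA4 siRNA sample was lower in 6 of 6 pairs, by 0.19 to 0.34. The log2 change was -0.26 (SE 0.046, limma adjusted p = 0.00104, 0.00019 with the 2 sets as the block, or 0.112 when the block was dropped). Its second probe read -0.29 (SE 0.096). PFKFB4, a related enzyme that acts on the same activator, had a change of -0.038 (interval -0.16 to 0.081). The first of 2 PFKFB3 windows, not shown, holds GCGTG 1 time. The second, chr10:6202682-6202931 on the plus strand, holds the palindrome CACGTG, which counts as ACGTG on both strands.

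PFKFB3: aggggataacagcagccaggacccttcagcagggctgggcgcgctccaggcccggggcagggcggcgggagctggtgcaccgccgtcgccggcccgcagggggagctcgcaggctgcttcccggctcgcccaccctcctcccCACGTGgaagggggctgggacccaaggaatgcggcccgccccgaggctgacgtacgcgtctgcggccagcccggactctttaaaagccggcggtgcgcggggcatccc

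**Figure D2:**
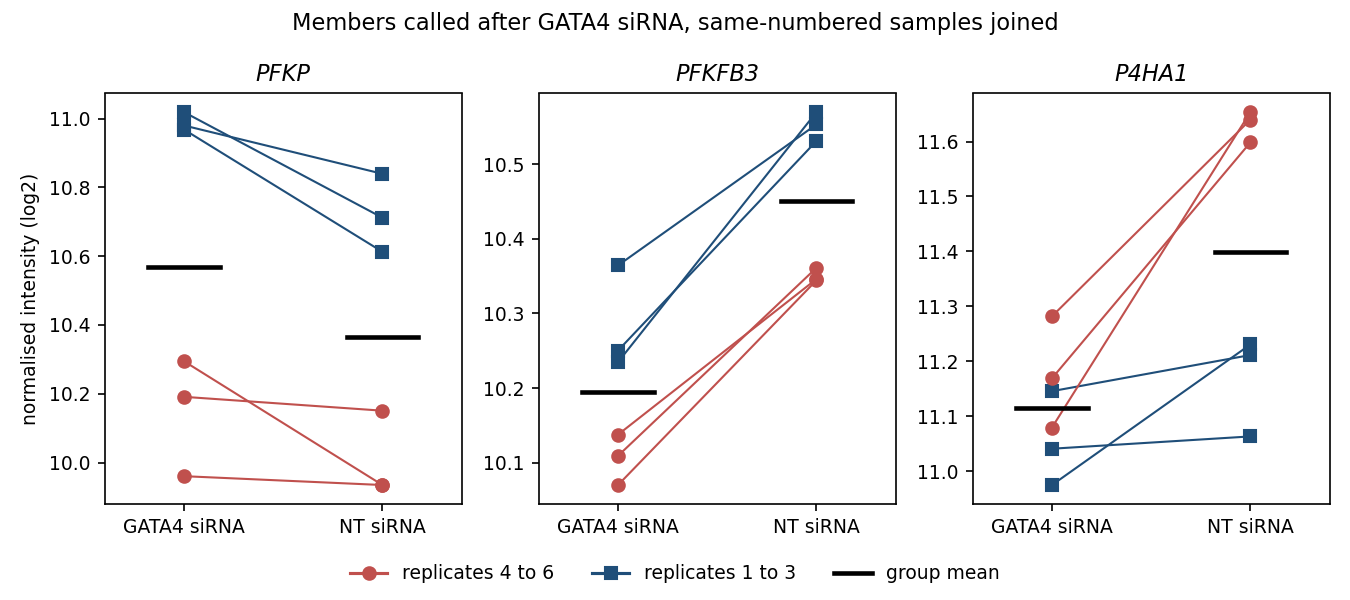
Normalised intensity (log2, vertical axis) of PFKP, PFKFB3 and P4HA1 in the 6 GATA4 siRNA samples, left, and the 6 NT siRNA samples, right, with same-numbered samples joined and group means as black bars. PFKP is higher by 0.20 on average while its sets stand apart; PFKFB3 is lower by 0.26 with near-parallel lines; P4HA1 is lower by 0.45 in replicates 4 to 6 and by 0.11 in replicates 1 to 3.

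The gluconeogenic genes gave little signal. FBP1, which removes a phosphate from fructose bisphosphate in the reverse direction, was detected on 5 of 6 arrays after GATA4 siRNA and 3 of 6 after NT siRNA. Its log2 intensities were 4.95, 5.56 and 6.10 after GATA4 siRNA and 4.70, 5.51 and 6.05 after NT siRNA, and the groups overlapped nearly in full. Its change was 0.12 (SE 0.14, limma adjusted p = 0.701). PCK1, the cytosolic phosphoenolpyruvate carboxykinase of liver, was not tested, since both its probes were at background on all 12 arrays.

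Among the collagen hydroxylases P4HA1 fell, while its 3 companions had positive changes that were not called. P4HA1 had log2 intensities of 10.97, 11.11 and 11.28 after GATA4 siRNA and 11.06, 11.41 and 11.65 after NT siRNA. In replicates 4 to 6 the GATA4 siRNA samples were at 11.17, 11.08 and 11.28 and the NT siRNA samples at 11.60, 11.65 and 11.64, with no overlap. In replicates 1 to 3 they were at 10.97, 11.04 and 11.15 and at 11.23, 11.06 and 11.21, and the groups overlapped. The log2 change over all pairs was -0.28 (SE 0.059, limma adjusted p = 0.00396, 0.00159 with the 2 sets as the block, or 0.337 when the block was dropped). The GATA4 siRNA sample was lower in 6 of 6 pairs, by 0.022 to 0.57. Its other probe was detected on 0 arrays, and the call ended with eBayes without a trend (adjusted p = 0.0919).

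P4HA2, the companion catalytic subunit, had a change of 0.11 (SE 0.046, limma adjusted p = 0.156), with 0.014 at its other tested probe. PLOD1 and PLOD2 are lysyl hydroxylases that prepare collagen for cross-linking. PLOD2 had log2 intensities of 10.51, 10.87 and 11.23 after GATA4 siRNA and 10.42, 10.75 and 11.06 after NT siRNA. It was higher in 6 of 6 pairs with a change of 0.13 (SE 0.046, limma adjusted p = 0.110), while its dimmer tested probe read -0.078. PLOD1 had a change of 0.097 (interval -0.0079 to 0.20). The P4HA1 window, chr10:73096867-73097116 on the minus strand, holds ACGTG once.

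P4HA1: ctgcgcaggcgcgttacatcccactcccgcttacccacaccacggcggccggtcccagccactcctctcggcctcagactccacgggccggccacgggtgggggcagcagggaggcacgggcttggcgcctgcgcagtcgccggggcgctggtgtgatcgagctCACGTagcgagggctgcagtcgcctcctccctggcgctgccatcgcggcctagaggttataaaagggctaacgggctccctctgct

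Neither tested secreted gene was called, and no probe named CA9, the carbonic anhydrase of the hypoxic cell surface. VEGFA, the endothelial growth factor, had log2 intensities of 6.28, 6.60 and 6.82 after GATA4 siRNA and 6.11, 6.43 and 6.51 after NT siRNA. The upper GATA4 siRNA samples exceeded the NT siRNA range and the lower ones lay within it. Its change was 0.19 (SE 0.094, limma adjusted p = 0.248). ADM, the vasodilator peptide adrenomedullin, had a change of 0.0088 (interval -0.098 to 0.12).

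Of the intracellular hypoxia genes, 0 of 4 were called. ANKRD37, a small ankyrin repeat protein induced by HIF, had log2 intensities of 6.36, 6.67 and 6.80 after GATA4 siRNA and 5.89, 6.24 and 6.70 after NT siRNA. The 3 lowest values were those of NT siRNA replicates 4 to 6. Its change was 0.35 (SE 0.12, limma adjusted p = 0.0858), the largest positive value among the members by size. It was called without replicate 3 (0.46, limma adjusted p = 0.0246) and with the 2 sets as the block (adjusted p = 0.0490), but had a change of 0.16 on the authors' normalised values (adjusted p = 0.0906). BNIP3 and BNIP3L, mitochondrial proteins of mitophagy, had changes of 0.0064 (interval -0.085 to 0.098) and 0.0019 (interval -0.13 to 0.14), the dimmer BNIP3L probe reading 0.18. NDRG1, a stress-induced cytoplasmic protein, had a change of -0.062 (interval -0.17 to 0.047). The ANKRD37 window, chr4:185396591-185396840 on the plus strand, holds CACGTG and another ACGTG.

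ANKRD37: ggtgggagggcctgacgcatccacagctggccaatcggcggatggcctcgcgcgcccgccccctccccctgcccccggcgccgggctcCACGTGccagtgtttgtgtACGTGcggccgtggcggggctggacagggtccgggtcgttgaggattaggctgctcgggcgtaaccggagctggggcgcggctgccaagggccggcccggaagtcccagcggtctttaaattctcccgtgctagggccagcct

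The oxygen sensing genes were not called either. EGLN1, the main prolyl hydroxylase that marks HIF for destruction, had log2 intensities of 7.73, 7.93 and 8.15 after GATA4 siRNA and 7.87, 8.12 and 8.31 after NT siRNA. The ranges overlapped, with the GATA4 siRNA sample lower in 5 of 6 pairs. Its change was -0.19 (SE 0.077, limma adjusted p = 0.158). HIF1A, the alpha subunit itself, had a change of 0.11 (SE 0.061, limma adjusted p = 0.332), and its other probes read -0.063 and -0.076. EGLN3, a sensor that HIF itself induces, was at background on all 12 arrays and was not tested.

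The letters ACGTG stood in 22 of the 55 windows of these genes (40.0%), which belong to 19 of 32 genes, and in 18.5% of 35116 windows of all genes. The letters GCGTG stood in 32.7% and 32.2%. The GATA motifs AGATAA and TGATAA stood in 7.3% and 9.1% of the members' windows, against 9.2% and 6.7% of all windows. Both strands were read and a window was counted once for a motif. The shares describe letters in these windows and nothing about binding.

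Other genes of these pathways were listed by role to place the members. They were chosen with earlier results of these data known, so the shares called describe the list and test nothing. Of 101 genes 71 were tested, 5 rose and 4 fell, so that 12.7% were called beside 6.41% of all genes. Without the block limma called 0 of them, and 9 (12.7%) had an unadjusted p under 0.05, beside 9.55% of all genes. SLC2A1, the glucose transporter of most growing cells, averaged 10.96 ± 0.23 after GATA4 siRNA and 10.69 ± 0.27 after NT siRNA (log2, SD, n = 6 each), with a log2 change of 0.27 (SE 0.049, limma adjusted p = 0.00119). MPC1, a subunit of the mitochondrial pyruvate carrier, averaged 10.90 ± 0.069 after GATA4 siRNA and 11.19 ± 0.13 after NT siRNA. The 2 groups did not overlap, and the change was -0.28 (SE 0.047, limma adjusted p = 0.000627), with -0.41 at its dimmer probe. Of the 10 tested genes of pyruvate entry, 9 had negative changes, and MPC1 alone was called.

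PCK2, the mitochondrial phosphoenolpyruvate carboxykinase, rose, in contrast to the undetected PCK1. It averaged 9.67 ± 0.17 after GATA4 siRNA and 9.27 ± 0.24 after NT siRNA, with a change of 0.40 (SE 0.052, limma adjusted p = 3.21e-05). Its 2 dimmer probes read 0.12 and 0.028, and with the mean of its probes the change was 0.18 (adjusted p = 0.128). Of 11 tested genes listed under HIF subunits and oxygen sensing 2 fell, and neither of them is itself a HIF subunit or an oxygen sensor. EP300, a coactivator acetyltransferase of HIF, averaged 8.43 ± 0.10 after GATA4 siRNA and 8.76 ± 0.14 after NT siRNA, without overlap, and changed by -0.32 (SE 0.069, limma adjusted p = 0.00477). ELOC, elongin C of the ubiquitin ligase that destroys HIF, changed by -0.13 (SE 0.040, limma adjusted p = 0.0442).

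Of 26 other hypoxia-induced genes tested, 3 rose and 1 fell. FAM162A, a mitochondrial protein, rose by 0.28 (SE 0.068, limma adjusted p = 0.0142), HILPDA, a lipid droplet protein, by 0.28 (SE 0.082, adjusted p = 0.0387) and PLOD3, a further lysyl hydroxylase, by 0.17 (SE 0.048, adjusted p = 0.0375). IGFBP1, a binding protein of insulin-like growth factors secreted by liver, fell by 0.76 on the log2 scale (SE 0.090). The limma adjusted p was 1.01e-05, or 0.433 when the block was dropped. IGFBP1 had log2 intensities of 8.00, 8.50 and 9.04 after GATA4 siRNA and 8.35, 9.30 and 10.05 after NT siRNA, lower in 6 of 6 pairs. In replicates 4 to 6 it was at 8.77 to 9.04 after GATA4 siRNA and 9.72 to 10.05 after NT siRNA. In replicates 1 to 3 it was at 8.00 to 8.24 and at 8.35 to 8.88. Leaving out any 1 replicate ended the call of ELOC (limma adjusted p 0.0704 to 0.113). The calls of EP300 and of FAM162A, HILPDA, PLOD3 and ELOC ended with eBayes without a trend (limma adjusted p 0.0615 to 0.141). The calls of FAM162A and HILPDA ended without replicate 4, 5 or 6 (adjusted p 0.0510 to 0.170), that of HILPDA without replicate 1 (0.0775), and that of PLOD3 without any replicate other than 2 (0.0699 to 0.138). The tested genes of the pentose phosphate pathway (7) and of glycogen turnover (5) gave 0 calls.

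The wider differences lay between the replicate sets, and they are given as a description with no test, since the sets were noticed in these arrays. The 6 samples of replicates 4 to 6 and the 6 of replicates 1 to 3 did not overlap in 8 of the 32 genes, 3 higher and 5 lower in replicates 4 to 6. Over all genes 25.7% did not overlap, 11.5% higher and 14.3% lower, so the members' 25% lies at that background. The members' median difference was -0.041, against 0.014 over all genes. ADM differed most. It was at 9.76 to 9.95 in replicates 4 to 6 and at 10.75 to 10.96 in replicates 1 to 3, a difference of -1.04 on the log2 scale, or 2.06-fold lower in replicates 4 to 6. GATA4 siRNA samples and NT siRNA samples lay side by side within each set. The ADM window, chr11:10304823-10305072 on the plus strand, holds GCGTG and no ACGTG.

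ADM: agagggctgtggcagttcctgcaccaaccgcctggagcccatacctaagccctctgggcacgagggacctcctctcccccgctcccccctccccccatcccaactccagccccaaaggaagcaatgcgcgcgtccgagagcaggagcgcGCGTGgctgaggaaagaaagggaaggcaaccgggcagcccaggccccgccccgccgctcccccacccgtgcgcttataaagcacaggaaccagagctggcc

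PFKP followed, at 9.93 to 10.29 in replicates 4 to 6 and 10.61 to 11.02 in replicates 1 to 3, with a difference of -0.78. P4HA2 was at 10.40 to 10.71 in replicates 4 to 6 and at 11.01 to 11.23 in replicates 1 to 3 (difference -0.61). PLOD2 (-0.55) and HK1 (-0.26) were also lower in replicates 4 to 6 without overlap. The second probes of P4HA2 and PLOD2 read -0.55 and -0.53. The difference of PFKP between sets was far larger than its 0.20 after GATA4 siRNA, and that of ADM stood beside a change of 0.0088.

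The opposite side held BNIP3, GPI and PFKL. BNIP3 was at 11.99 to 12.21 in replicates 4 to 6 and at 11.72 to 11.83 in replicates 1 to 3, a difference of 0.32. GPI (0.27) and PFKL (0.23) were higher in replicates 4 to 6 without overlap, so the 3 phosphofructokinase subunits did not go 1 way: PFKM differed by -0.070. FBP1 had the largest positive difference by size, 0.62, with 5.55 to 6.10 in replicates 4 to 6 and 4.70 to 5.67 in replicates 1 to 3. It met the detection filter through replicates 4 to 6, with detection p-values of 0.0026 to 0.00779. NT siRNA replicates 1 to 3 (0.0597, 0.0143 and 0.171) and GATA4 siRNA replicate 3 (0.0701) were at background, so the size of this difference cannot be judged. The sets of FBP1 overlapped, and on the authors' normalised values the difference was 0.20. P4HA1 differed by 0.29, with sets that overlapped. With equal medians in place of quantiles HK1 and PFKL overlapped too, and NDRG1 (0.25) did not.

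**Figure D3:**
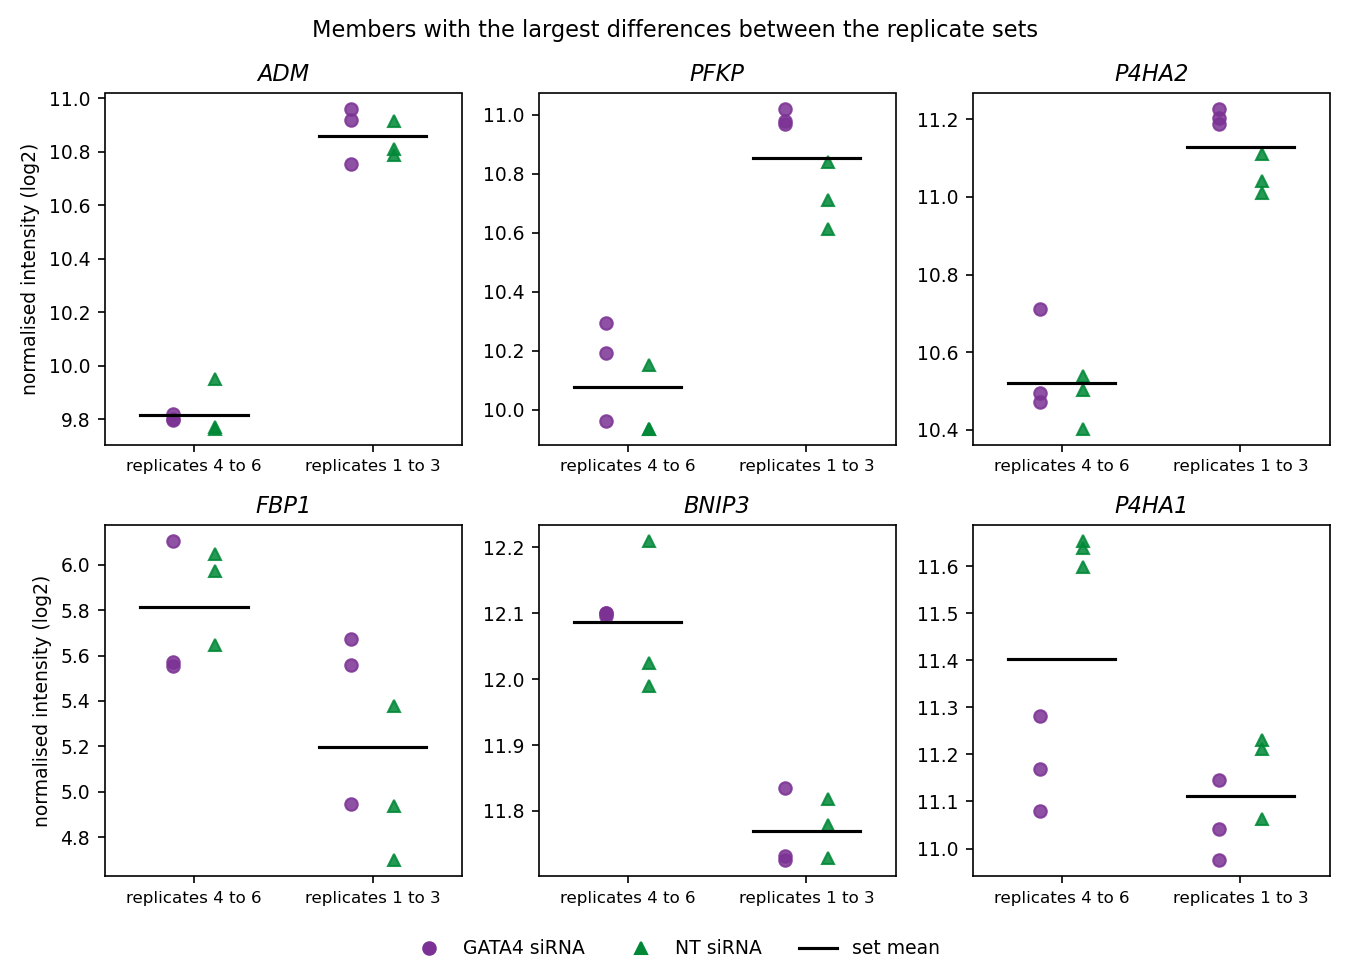
Normalised intensity (log2, vertical axis) of the 3 genes lowest and the 3 highest by difference between the sets, with replicates 4 to 6 left of replicates 1 to 3, GATA4 siRNA as circles, NT siRNA as triangles and set means as bars. ADM differs by -1.04, PFKP by -0.78 and P4HA2 by -0.61, with no overlap of sets. FBP1, at background in most samples of replicates 1 to 3, differs by 0.62 with overlap. BNIP3 differs by 0.32 without overlap, and P4HA1 by 0.29 with overlap.

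Markers of some other cell types moved with the sets, not all in 1 direction. The summed linear signal of the 6 tested fibroblast and stellate cell markers was 7492 to 8746 in replicates 4 to 6 and 11206 to 13258 in replicates 1 to 3, while COL1A1, COL3A1, DCN and LUM were not tested. Of these 6 markers 4 were lower in replicates 4 to 6 without overlap, PDGFRB overlapped, and PDGFRA was higher without overlap, with a log2 difference of 0.81. The 3 tested leukocyte markers of 6 (CD68, CD14 and CD3D) summed to 1550 to 1808 in replicates 4 to 6 and 3060 to 3288 in replicates 1 to 3, with PTPRC and LYZ not detected on enough arrays. The 8 hepatoblast and hepatocyte markers summed to 84795 to 91233 in replicates 4 to 6 and 94213 to 97957 in replicates 1 to 3. The 4 tested cholangiocyte markers summed to 19042 to 20342 in replicates 4 to 6 and 19830 to 21653 in replicates 1 to 3, which overlapped, with SOX9 higher (0.33) and CFTR lower (-0.59) without overlap. PECAM1, the 1 endothelial marker tested, overlapped as well, at 431 to 525 in replicates 4 to 6 and 405 to 557 in replicates 1 to 3. The part of these markers in the differences between the sets was not tested.

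The effect of GATA4 siRNA was then set side by side in both sets, which share no sample. A limma interaction called 0 genes, and 6 of the 32 members had an unadjusted p under 0.05, against 8.16% of all genes. P4HA1 had a log2 change of -0.45 within replicates 4 to 6 (limma adjusted p = 0.000140) and of -0.11 within replicates 1 to 3 (adjusted p = 0.501). The difference of its changes was -0.34 (SE 0.091, unadjusted p = 0.00134, adjusted p = 0.395), the lowest adjusted p among the members. Leaving out any 1 replicate kept P4HA1 among the genes at an unadjusted p under 0.05. Since the difference missed the threshold, the sets are not shown to differ or to act alike.

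ANKRD37 had a change of 0.63 within replicates 4 to 6 (limma adjusted p = 0.0207) and of 0.077 within replicates 1 to 3 (difference 0.55, SE 0.21, adjusted p = 0.509). EGLN1 had -0.030 within replicates 4 to 6 and -0.35 within replicates 1 to 3, and PGAM1 had -0.0023 and -0.25. PLOD1 (-0.0097 and 0.20) and PFKFB4 (-0.14 and 0.069) were the other 2 members at an unadjusted p under 0.05. Which members reached that level depended on the replicate left out, with 3 to 7 members doing so. PFKFB3 had changes of -0.24 within replicates 4 to 6 and -0.27 within replicates 1 to 3, with a difference of 0.023 (SE 0.088). PFKP had 0.14 and 0.27, a difference of -0.13 (SE 0.10).

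**Figure D4:**
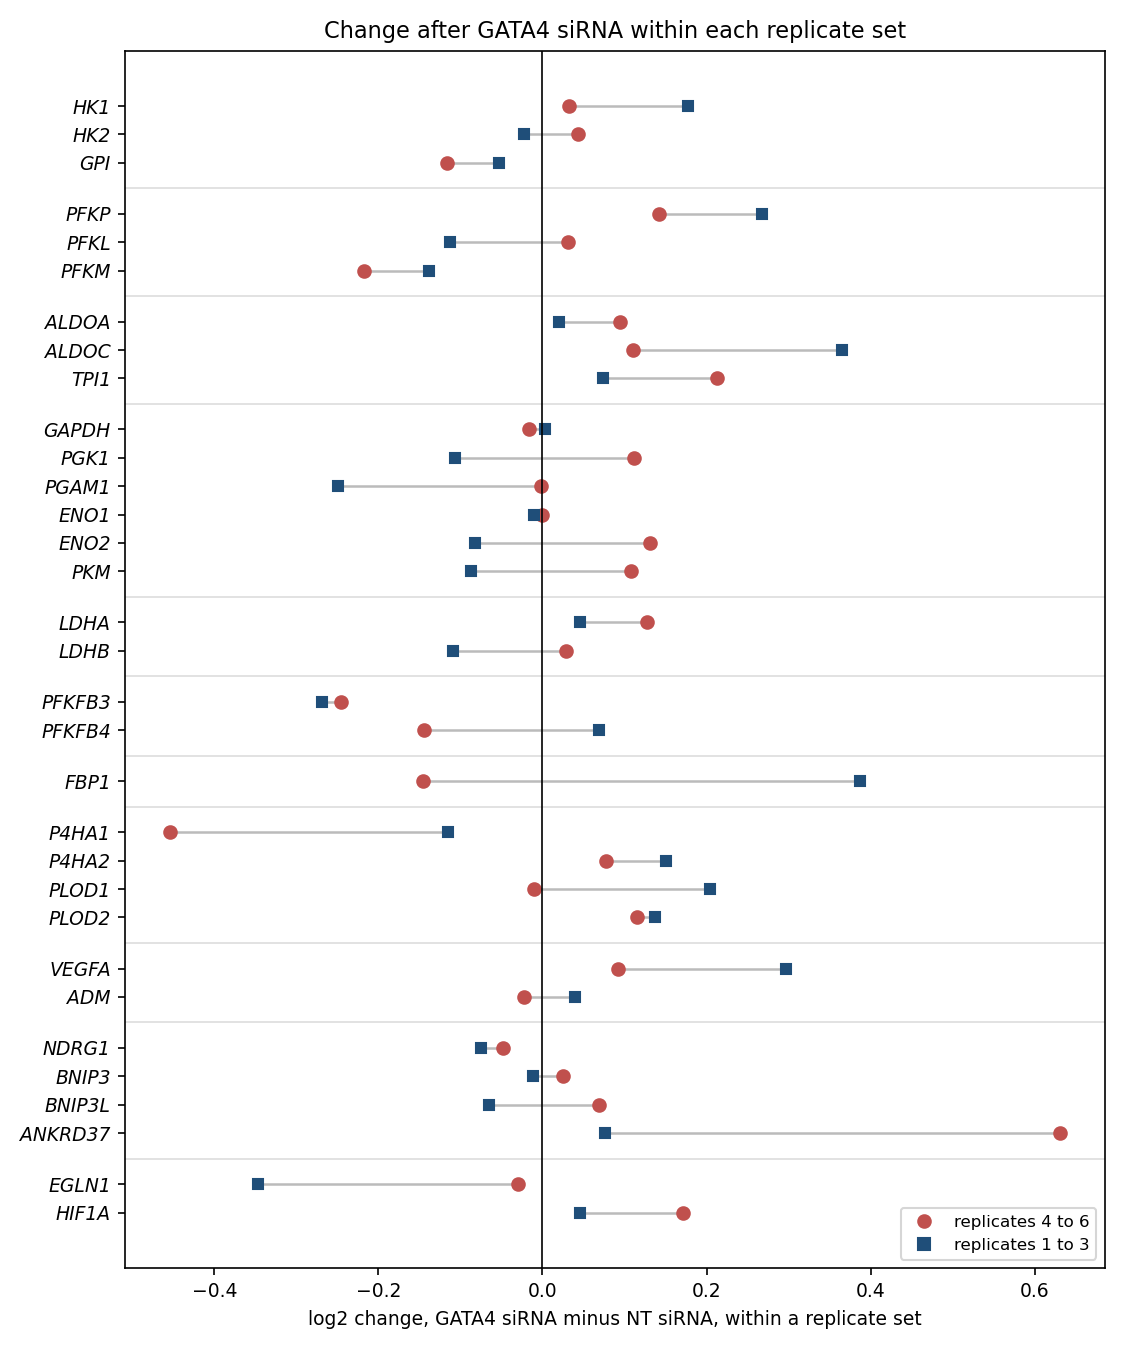
Log2 change (GATA4 siRNA minus NT siRNA, horizontal axis) of each tested gene within replicates 4 to 6 (circles) and within replicates 1 to 3 (squares), by role down the page. PFKFB3 lies at -0.24 and -0.27, P4HA1 at -0.45 and -0.11 and ANKRD37 at 0.63 and 0.077, while ENO1 lies near 0 in both.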

How the data were processed

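Total RNA of 12 samples, 6 per siRNA, was biotin-labelled and hybridised to Illumina beadchips, per the labels. The deposited table gives for every probe 1 intensity on a linear scale in each sample, made with GenomeStudio per the submitters' processing notes (version not given), and beside it a detection p-value, per the file headers. The authors' deposited normalised table holds log2 values; quantile normalising the raw log2 signals gave the same numbers to within 0.0141. Between 16067 and 16804 of 48106 probes passed detection on an array, and the number of arrays limits the precision.

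With limma 3.58.1 in R 4.3.3, neqc took the background from the detection p-values, added an offset of 16, normalised by quantiles and returned log2 intensities. Symbols were updated by gene ID through a RefSeq table of GRCh38.p14. Of 30112 probes with 1 symbol, 13201 were tested. The two-sided comparison used lmFit, then eBayes with its intensity trend, with the replicate number as a block and Benjamini-Hochberg adjustment over 10196 genes. Levels of different probes were not compared, but the summed marker signals add them, so the brighter probes weigh most in a sum.

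The members, the other pathway genes, the markers and the sets were chosen with earlier results of these data known. By rule, values are given for the members called, for the member with the lowest p of each role where none was called, for the 3 largest differences in each direction between the sets, and for up to 3 higher and 3 lower called genes per role of the other genes; GATA4 checks the silencing. Deviations from the group mean correlated across genes at 0.548 to 0.604 (Pearson) between samples of the same number, and at 0.549 to 0.629 between other numbers of 1 set. With the set mean removed too, the first values became -0.0604 to 0.0119, so the pairing comes from the sets, for which the labels give no origin. Alternatives changed the block, background offset, normalisation, source of values, filter, probe rule, variance model and array weights, and left out each replicate number or set.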

Additional observations from a re-analysis of the deposited data

Results flagged for a closer look

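The 32 tested genes gave 64 groups of 6 samples, and in each the gap of the extreme sample to its neighbour was divided by the group's range (Dixon's test). A ratio over 0.625 was flagged, and 5 groups had one. About 3.2 would be flagged if each group were 6 independent draws from 1 normal distribution. Each group here joins samples of the 2 sets, so that number is no fair expectation and the counts were not weighed. In GAPDH, NT siRNA replicate 4 was at 13.62 on the log2 scale, with the others at 13.46 to 13.51. In PKM, GATA4 siRNA replicate 3 was at 10.95, with the others at 11.27 to 11.42. In LDHB, GATA4 siRNA replicate 2 was at 12.37, with the others at 12.57 to 12.68, and NT siRNA replicate 3 was at 12.50, with the others at 12.62 to 12.68. In VEGFA, NT siRNA replicate 4 was at 6.11, with the others at 6.36 to 6.51. None of these genes was called with or without the replicate block.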

How the results depend on the processing

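Without the replicate block 72 genes were called in place of 654, and 0 members and 0 of the other pathway genes. Equal medians in place of quantiles gave 362 calls over all genes, no filter on detection 398, and eBayes without a trend 271, with 1 member (PFKFB3) and 4 other pathway genes. Replicates 1 to 3 alone gave 121 calls, 0 members and 3 other pathway genes, and replicates 4 to 6 alone 523, 3 and 10. With the 2 sets as the block 784 genes, 4 members and 10 other pathway genes were called. Leaving out each replicate gave 445 to 587 calls over all genes, 2 to 3 members and 5 to 9 other pathway genes; the 5 came without replicate 4, 5 or 6. The call of PFKFB3 was lost in 2 of 19 alternatives, that of P4HA1 in 3 and that of PFKP in 9, where its adjusted p ran up to 0.889. Of 795 recomputed changes 62 lost a call, 5 gained one and 15 moved by over 1 SD without one. The other 713 kept a call in the same direction, or stayed uncalled and within 1 SD. With a call 0 reversed. A further count overlaps these: 45 changes with no call in either setting changed sign, and they lie within the 713 and the 15. Of 320 recomputed differences between the sets, 315 stayed within 1 SD; with equal medians GAPDH differed by 0.18, LDHA by 0.091 and ENO1 by 0.049, and on the authors' values FBP1 by 0.20 and ANKRD37 by -0.14. The causes were not tested. ALDOC and FBP1, near background, have the widest intervals.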
